A study of Mus musculus with 5 samples.

Results

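Ms4a4c, Ms4a6b, Ms4a6c, Ms4a6d and Ms4a7 are genes of the membrane-spanning 4-domains family, and their levels were followed in 5 RNA-seq libraries of sorted mouse bone marrow (BM) cells. They were chosen by symbol, and all 5 symbols were found among the 23234 listed in each library. There was 1 library per condition: Ym1+Ly6Chi monocytes, Ym1-Ly6Chi monocytes and neutrophils, all taken 48 h after LPS, with monocytes and neutrophils of untreated (naïve) mice. All mice were C57BL/6, 7 weeks old and of the genotype +/Ym1Venus, in which the fluorescent protein Venus reports expression of Ym1 (listed here as Chi3l3), a chitinase-like protein of myeloid cells. Monocytes were sorted as Ly6C+CD115+ cells, positive for Venus in the Ym1+ library and negative in the Ym1- and naïve libraries, and neutrophils as Ly6G+ cells. LPS was given into a vein at 100 µg per mouse. How many mice gave each library, and whether cells were pooled, was not stated in the sources at hand.

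MS4A proteins cross the membrane 4 times and sit at the cell surface or in inner membranes. The founding members are lineage genes of lymphoid and mast cells: Ms4a1 encodes CD20 of B cells and Ms4a2 the beta chain of the high-affinity IgE receptor. Other members are used by myeloid cells, where several associate with immune receptors. Ms4a7 is known from macrophages resident in tissues, and Ms4a6d from monocytes and macrophages. The members studied lie in a gene cluster on mouse chromosome 19, in which close copies stand beside each other.

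Values are FPKM, in which fragments are counted per kilobase of transcript and per size of the library, so levels may be compared between genes. As there was 1 library per condition, no test was possible and every difference describes a pair of libraries. The 95% interval beside a level is an exact Poisson interval on a rough number of fragments, and that beside a ratio is the exact interval of the ratio of both numbers. Both cover counting error only and say nothing of the spread between mice. Pairs of libraries were compared over genes that reached 1 FPKM in 1 library or both. A gene is called higher or lower when log2(FPKM + 1) differed by at least 1, which is 2-fold of FPKM + 1. In calls, 2-fold has this meaning, so a gene of low level can have an FPKM ratio above 2 and not be called. The depth, read from the steps between low values, was about 4160000 to 9310000 fragments per library, lowest in the Ym1- library at 44.7% of the Ym1+ library. Chi3l3 was at 1759 FPKM in the Ym1+ library against 386 in the Ym1- library, the direction of the sort. The 7 monocyte markers summed to 4865 to 5922 FPKM in the monocyte libraries and to 1417 and 1637 in the neutrophil libraries, where nearly all of it was Ly6c2. Of the 9 neutrophil markers, the sum was 282170 and 292415 in the neutrophil libraries, 14032 in the Ym1+ library, 1926 in the Ym1- library and 1304 in naïve monocytes. In bulk libraries fewer cells of a type and less RNA per cell cannot be told apart.

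Ms4a6b and Ms4a6c show how closely copies can resemble each other, and their upstream sequences are printed because both genes were high in every monocyte library. The table of promoters from RefSeq, on the build GRCm38.p6, had windows for 4 of the 5 genes, with a pair of windows for Ms4a7. It had none for Ms4a6d, whose promoter was therefore not searched. The 250 bases before the start are given for Ms4a6b at chr19:11518309-11518558 and for Ms4a6c at chr19:11469118-11469367, both on the plus strand, 5′ to 3′. Capitals mark a run of 48 bases that is identical in both.
Ms4a6b: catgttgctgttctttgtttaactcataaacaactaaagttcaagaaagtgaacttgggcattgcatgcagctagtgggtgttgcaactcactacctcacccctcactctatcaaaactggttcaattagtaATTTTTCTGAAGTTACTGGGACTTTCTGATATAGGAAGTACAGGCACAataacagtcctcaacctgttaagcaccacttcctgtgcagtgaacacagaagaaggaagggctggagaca
Ms4a6c: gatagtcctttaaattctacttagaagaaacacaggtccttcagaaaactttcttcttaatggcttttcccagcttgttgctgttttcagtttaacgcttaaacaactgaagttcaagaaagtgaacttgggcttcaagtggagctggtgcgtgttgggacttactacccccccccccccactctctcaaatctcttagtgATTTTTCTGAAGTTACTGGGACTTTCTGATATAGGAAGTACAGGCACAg
The run lay at bases 118 to 71 before the start of Ms4a6b and at bases 49 to 2 before that of Ms4a6c, and it was found in 2 of 32851 promoter windows. Both windows aligned over 234 columns, 193 of them identical (82.5%). The ETS core AGGAAG, which PU.1 of myeloid cells can bind, was searched on both strands of the 300-base windows. It matched in Ms4a6c at 17 bases before the start and in Ms4a6b at 86, 42 and 17 bases before it, and the match in Ms4a6c and that at 86 in Ms4a6b fall inside the shared run. No match was present in Ms4a4c or in either window of Ms4a7, while 35.4% of all promoter windows held this core. The interferon-stimulated response element (GAAA, any 2 bases, GAAA), the ETS-IRF element (GGAA, any 2 bases, GAAA), a C/EBP core (TTGCNNAA) and an NF-kB core (GGGA, any base, TTTCC) had no match in these windows and were present in 3.44%, 2.72%, 10.8% and 0.411% of all windows. These letters are a description and say nothing of binding.

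The likeness extends to the transcripts, where fragments could be assigned to the wrong copy. Of the 50-base stretches in the annotated protein-coding transcripts, 8.13% of those of Ms4a4c occurred also in another Ms4a gene, mostly Ms4a4b. The share was 5.66% for Ms4a6b and 6.08% for Ms4a6c, mainly with each other, and 2.69% for Ms4a6d, with Ms4a6b. For Ms4a7 it was 0 of 1778 stretches. How the FPKM values treated fragments that match several genes was not stated in the sources at hand, so small differences among Ms4a4c, Ms4a6b, Ms4a6c and Ms4a6d are uncertain.

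The 5 genes fell into 3 patterns. Ms4a6c, Ms4a4c and Ms4a6b were high in all 3 monocyte libraries and at 1.57 FPKM or less in neutrophils, with little difference after LPS. Ms4a6d had the same lineage pattern and was in addition about 4-fold higher in both monocyte libraries after LPS. Ms4a7 was low everywhere and highest in the Ym1+ library.

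Ms4a6c was the most abundant of the 5 in every library. Its FPKM was 444 (432 to 457) in naïve monocytes, 415 (401 to 430) in Ym1- monocytes and 405 (395 to 415) in Ym1+ monocytes, where it ranked 185, 222 and 222 among all symbols. In neutrophils it was 1.57 (1.03 to 2.30) without LPS and 1.13 (0.639 to 1.84) after LPS. The monocyte levels lay close together, and the counting intervals of the Ym1- and Ym1+ libraries overlapped.

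Ms4a4c stood next in naïve and Ym1- monocytes. Naïve monocytes held 114 FPKM (108 to 121), Ym1- monocytes 130 (122 to 139) and Ym1+ monocytes 116 (111 to 122). In neutrophils it was 0.194 without LPS and 0.0777 after LPS. These neutrophil values stand for about 3 fragments and 1 fragment, so their order cannot be read.

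Ms4a6b was at 86.5 FPKM (80.8 to 92.5) in naïve monocytes, at 100.5 (93.3 to 108) in the Ym1- library and at 88.9 (84.3 to 93.7) in the Ym1+ library. In neutrophils it was 0.430 without LPS and 0.478 after LPS, from about 6.57 and 6.07 fragments. As for Ms4a4c, the Ym1- value was the highest of the 3 monocyte libraries. For Ms4a6b its interval overlapped that of the Ym1+ library but not the naïve interval, and the Ym1+ and naïve intervals overlapped. The FPKM ratio of Ym1+ to Ym1- monocytes was 0.884 (0.807 to 0.970).

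Naïve monocytes held 25.9 FPKM of Ms4a6d (22.5 to 29.6), whereas Ym1- monocytes held 98.9 (91.0 to 107) and Ym1+ monocytes 116 (110 to 122). In neutrophils it was 0.252 without LPS and 0.405 after LPS. Among all symbols it ranked 3259 in naïve monocytes, and 957 and 749 in the Ym1- and Ym1+ libraries.

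Ms4a7 was at 3.02 (2.20 to 4.05) in Ym1+ monocytes, 1.13 (0.553 to 2.06) in naïve and 0.897 (0.325 to 1.97) in Ym1- monocytes. In neutrophils it was 0.439 without LPS and 0.330 after LPS. About 44.3 fragments stood behind the Ym1+ value and 3.92 to 10.4 behind the others, and among those 4 libraries the intervals overlapped.

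**Figure D1:**
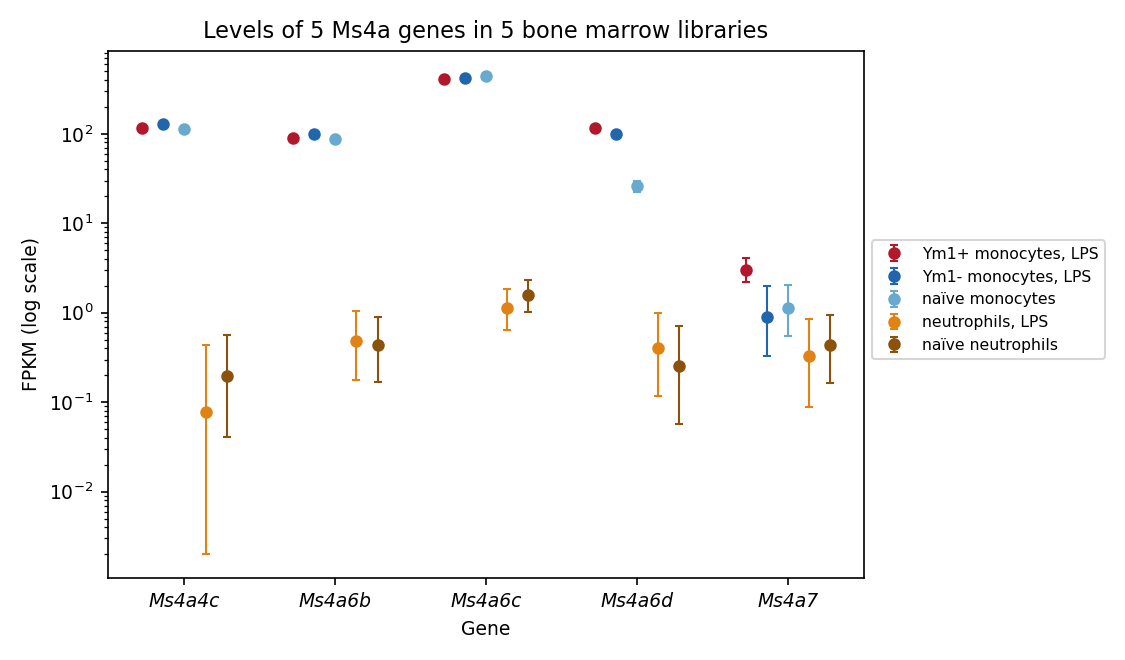
FPKM of each gene on a log axis in the 5 libraries, 1 point per library, with 95% Poisson intervals for counting error. Ms4a4c, Ms4a6b, Ms4a6c and Ms4a6d sit between 25.9 and 444 in monocytes and between 0.0777 and 1.57 in neutrophils, and Ms4a7 does not go above 3.02.

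The lineage comparison asks which genes set monocytes apart from neutrophils. Without LPS, 4 of the 5 genes were at least 2-fold higher in monocytes and none was lower. Among 10944 genes compared, 42.7% were higher and 10.8% lower, so a call in this direction was common. Ms4a4c, Ms4a6b and Ms4a6d reached 1 FPKM only in monocytes and had to be higher there to be compared. The median difference of the 5 genes was 5.94 on the log2(FPKM + 1) scale, against 0.79 over all genes. When libraries were scaled by the median of ratios, the median over all genes moved to 0.03, with 24.2% higher and 22.3% lower, and the 4 calls held.

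By FPKM ratio, Ms4a4c was 590 times the naïve neutrophil level (202 to 2841). Ms4a6c was 282 times that level (193 to 432) and Ms4a6b 201 times (95.1 to 520). Ms4a6d, the lowest of these in naïve monocytes, was at 102.5 times (35.9 to 462). These intervals are wide because few fragments were seen in neutrophils, and those of the 4 genes overlap in part. Ms4a7 was at 2.58 times (0.872 to 8.39), and its difference of 0.57 on the log2(FPKM + 1) scale was under the threshold, but with a pseudocount of 0.1 it was called, at 1.19.

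After LPS the lineage difference was seen at both Venus gates. In Ym1- monocytes 4 of 4 genes compared were higher than in neutrophils, with 40.8% of 10676 genes higher and 11.0% lower. Ms4a7 was below 1 FPKM in both libraries and was not compared. The differences on the log2(FPKM + 1) scale were 6.93 for Ms4a4c, 6.10 for Ms4a6b, 7.61 for Ms4a6c and 6.15 for Ms4a6d. In Ym1+ monocytes 5 of 5 were higher, with 36.4% of 10520 genes higher and 9.53% lower, and the differences were 6.76, 5.93, 7.58 and 6.38 for the same genes in the same order. Ms4a7 was the fifth, with an FPKM ratio of 9.15 (3.30 to 35.7). Both comparisons use the same neutrophil library. In it only Ms4a6c of the 5 genes reached 1 FPKM, so the others had to be higher in monocytes to be compared.

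The levels in neutrophils were of the size seen for several monocyte markers. As a share of the naïve monocyte level, naïve neutrophils held 0.169% for Ms4a4c, 0.354% for Ms4a6c, 0.497% for Ms4a6b and 0.976% for Ms4a6d. Of the 7 monocyte markers, Ccr2, Irf8, F13a1, Fn1 and Klf4 lay between 0.0815% and 0.470%, while Csf1r was at 14.7% and Ly6c2 at 42.4%. Ms4a7 was at 38.7%, from few fragments in both libraries. Whether the fragments in the neutrophil libraries came from neutrophils or from other cells in the gate was not tested.

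**Figure D2:**
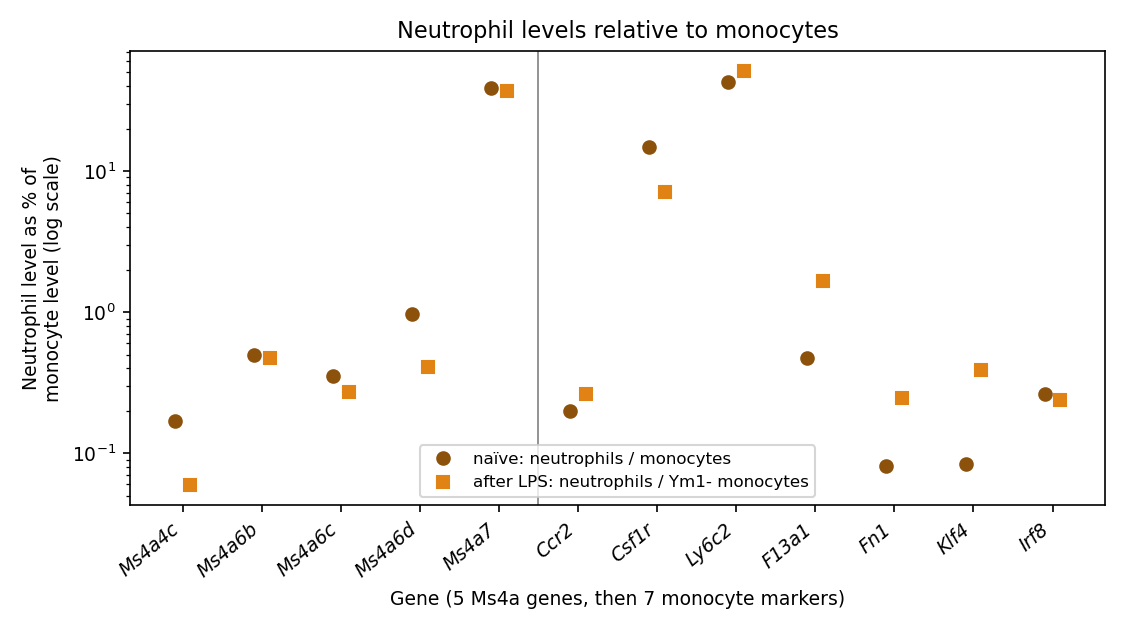
Neutrophil FPKM as a percentage of monocyte FPKM on a log axis, for the 5 Ms4a genes and 7 monocyte markers, without LPS (circles) and after LPS against Ym1- monocytes (squares). All Ms4a genes but Ms4a7 lie below 1%, as Ccr2 and Irf8 do, whereas Csf1r and Ly6c2 lie between 7.08% and 50.8%.

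Ym1- monocytes after LPS and naïve monocytes came through the same Venus gate and show the difference after LPS. Ms4a6d was the only one of the 5 genes at least 2-fold apart. It was higher after LPS by 1.90 on the log2(FPKM + 1) scale, an FPKM ratio of 3.82 (3.26 to 4.49). In this comparison 2.86% of 10714 genes were higher and 4.72% lower. Ms4a4c differed by 0.18 and Ms4a6b by 0.21, with FPKM ratios of 1.14 and 1.16. Ms4a6c differed by -0.10 and Ms4a7 by -0.17. The median of the 5 genes was 0.18 and that of all genes -0.00.

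In Ym1+ monocytes, where LPS and the Venus gate differ together from the naïve library, Ms4a6d was again called. It was higher by 2.12 on the same scale, an FPKM ratio of 4.49 (3.89 to 5.21), against a background of 2.59% of 10698 genes higher and 4.51% lower. Ms4a4c and Ms4a6b were at 0.02 and 0.04, and Ms4a6c at -0.13. Ms4a7 was at 0.91, just under the threshold, with an FPKM ratio of 2.67 (1.34 to 5.84). With a pseudocount of 0.1 and after rescaling to TPM it was called as well, at 1.34 and 1.06. Both comparisons share the naïve monocyte library, so the values of Ms4a6d are not independent.

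With Ms4a6d higher after LPS and Ms4a4c, Ms4a6b and Ms4a6c little different, the make-up of the Ms4a transcripts differed. Ms4a6d was 3.85% of the summed FPKM of the 5 genes in naïve monocytes, against 13.3% (Ym1-) and 15.9% (Ym1+) after LPS. Ms4a6c went from 66.1% to 55.7% and 55.5%. Ms4a4c stayed between 15.9% and 17.4% and Ms4a6b between 12.2% and 13.5%. The sum itself was 672 FPKM without LPS, and 746 (Ym1-) and 729 (Ym1+) after LPS. These shares within a library do not depend on its scaling.

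**Figure D3:**
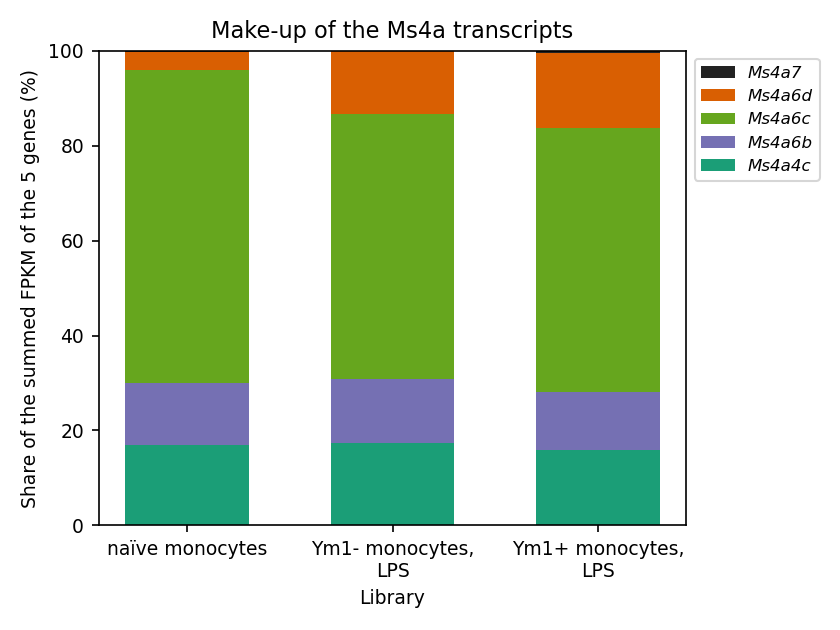
Share of each gene in the summed FPKM of the 5 genes, in percent, for the 3 monocyte libraries, 1 bar per library. Ms4a6d takes 3.85% in the naïve bar, 13.3% in the Ym1- bar and 15.9% in the Ym1+ bar, and Ms4a7 takes at most 0.414%.

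Marker lists of other cells also differed between these libraries. The summed FPKM of 10 tissue macrophage markers was 51.3 in naïve monocytes, and 61.2 (Ym1-) and 121 (Ym1+) after LPS, with Timd4 at 0 in all 3. Emr1 (F4/80), the highest, was at 45.4, 33.7 and 44.8 in this order. C1qa, C1qb and C1qc, which encode complement C1q, were at 0.177 to 0.520 in naïve, 4.62 to 14.7 in Ym1- and 17.2 to 31.7 in the Ym1+ library. Of the markers compared with naïve monocytes, 3 of 6 were higher in the Ym1- and 5 of 8 in the Ym1+ library. None was called lower, but some fell by less than 2-fold. Cd163 was 2.04 FPKM without LPS, against 0.797 (Ym1-) and 0.552 (Ym1+) after LPS. Mrc1 was 2.11 FPKM without LPS, against 1.04 (Ym1-) and 2.35 (Ym1+) after LPS. The 10 Ly6C-low monocyte markers summed to 448 in naïve monocytes, and to 241 (Ym1-) and 221 (Ym1+) after LPS, and the 7 dendritic cell markers to 136, 49.2 and 14.4. The part of these cells in the Ms4a6d difference was not tested. The neutrophil libraries held Ms4a6d at no more than 0.405 FPKM.

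Ym1+ and Ym1- monocytes after LPS were compared to ask what the Venus gate separates. Ms4a7 alone was called, higher in Ym1+ monocytes by 1.08 on the log2(FPKM + 1) scale, with an FPKM ratio of 3.37 (1.42 to 9.80). Of 10489 genes, 1.38% were higher and 1.18% lower. As Ms4a7 was below 1 FPKM in the Ym1- library, it had to be higher in the Ym1+ library to be compared. The call rests on about 5.87 fragments in the Ym1- library and was not made at a minimum of 5 FPKM, where Ms4a7 is left out, or at 4-fold. Ms4a6d was at 0.23, Ms4a6c at -0.04, Ms4a4c at -0.16 and Ms4a6b at -0.18. For Ms4a6c the sign turned with median-of-ratios scaling, to 0.03.

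Ms4a7 moved with marker lists at this gate. Of the tissue macrophage markers, 5 of 7 compared were higher in Ym1+ than in Ym1- monocytes and none lower. Between Ym1- and naïve monocytes, however, the C1q genes were higher in the Ym1- library and Ms4a7 differed by -0.17. Of the neutrophil markers, 8 of 9 were higher and none lower. Ms4a7 was at 0.330 FPKM in neutrophils after LPS, below its 3.02 in Ym1+ monocytes. The part of tissue macrophages and of neutrophils in the Ms4a7 difference was not tested.

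**Figure D4:**
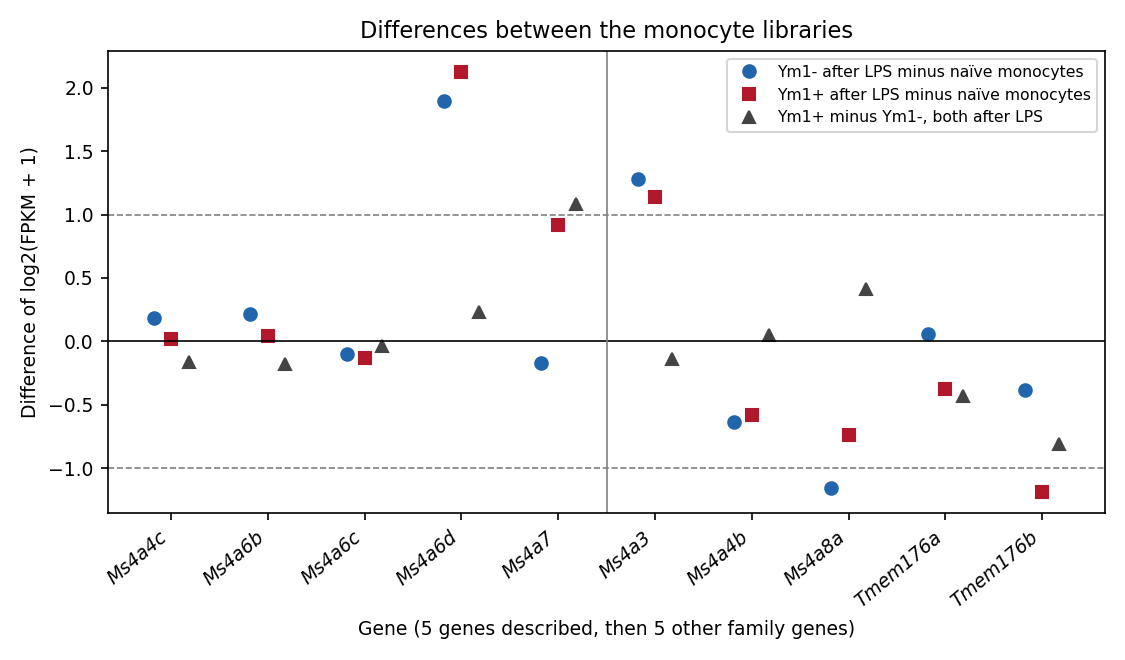
Differences of log2(FPKM + 1) between monocyte libraries for the 5 Ms4a genes and 5 other family genes, 1 point per pair of libraries, with dashed lines at the 2-fold threshold. Ms4a6d stands at 1.90 and 2.12 after LPS, Ms4a7 at 1.08 between the Venus gates, and Ms4a4c, Ms4a6b and Ms4a6c between -0.18 and 0.21.

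In neutrophils, only Ms4a6c reached 1 FPKM and could be compared. It differed by -0.28 after LPS, an FPKM ratio of 0.716 (0.357 to 1.39), and was not called, while 8.96% of 9583 genes were higher and 5.35% lower. The ratio of Ms4a6d had an interval of 0.294 to 9.98, that of Ms4a6b 1.11 (0.305 to 3.96), that of Ms4a7 0.752 (0.155 to 3.13) and that of Ms4a4c 0.401 (0.00784 to 4.94). No difference after LPS was detectable at this depth, and the interval for Ms4a6d includes the ratio of 3.82 seen in Ym1- monocytes.

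The other genes of the family had patterns of their own. Of 19 further names listed, including the related 4-span genes Tmem176a and Tmem176b, 13 were found as rows, 4 were not found and 2 are older names of genes already described. Of these 13, 5 reached 1 FPKM in any library. Without LPS, 5 of 5 were higher in monocytes than in neutrophils, where 42.7% of all genes were. After LPS 4 of 5 were higher at either gate, where 40.8% (Ym1-) and 36.4% (Ym1+) of all genes were. Ms4a4b, Ms4a8a and Tmem176a reached 1 FPKM only in monocytes, as did Tmem176b without LPS, so they had to be higher there to be compared. With median-of-ratios scaling Ms4a3 was not called without LPS, at 0.65, and was lower in Ym1+ monocytes than in neutrophils after LPS, at -1.06, while the calls of the other genes held.

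Ms4a3, a gene of granulocyte-monocyte progenitors that acts in the cell cycle, was the exception. Naïve monocytes held 51.9 FPKM, Ym1- monocytes 127 and Ym1+ monocytes 116, with 18.2 in naïve neutrophils against 144 after LPS. It was thus the only family gene here at more than 2 FPKM in neutrophils. After LPS it was higher by 2.91 on the log2(FPKM + 1) scale in neutrophils, an FPKM ratio of 7.89 (6.70 to 9.34), and by 1.28 and 1.14 in Ym1- and Ym1+ monocytes. In neutrophils after LPS 4 of 6 myeloid progenitor markers compared were also higher and 1 lower, and their sum was 828 against 299. In Ym1- monocytes after LPS 0 of 7 were called higher and 4 lower, with a sum of 1847 against 2463 in naïve monocytes. The markers called higher in neutrophils were Elane, Mpo, Prtn3 and Ctsg, while Kit was called lower and Cd33 went from 254 to 147. In Ym1- monocytes Prtn3 was at 801 against 628 and Ctsg at 382 against 284, each under 2-fold. In Ym1+ monocytes 0 of 7 were called higher and 3 lower than in naïve monocytes, with a sum of 1520. There Prtn3 was at 675 against 628, Cd33 at 12.6 against 7.81 and Ctsg at 237 against 284. The part of progenitors in the Ms4a3 difference was not tested.

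Ms4a8a was at 44.0 FPKM in naïve monocytes and, after LPS, at 19.2 (Ym1-) and 26.0 (Ym1+), and it was listed at 0 in both neutrophil libraries. It was lower in Ym1- than in naïve monocytes, with a difference of -1.15 on the log2(FPKM + 1) scale, and by less than 2-fold in Ym1+ monocytes, at -0.74. Ms4a4b, known from T cells, was at 21.6, 13.6 and 14.1 in naïve, Ym1- and Ym1+ monocytes, at 0.224 in neutrophils after LPS and listed at 0 in naïve neutrophils. The 8 T or NK cell markers summed to 20.9 FPKM in naïve monocytes, 11.2 in Ym1- and 16.9 in the Ym1+ library, with Nkg7 highest in the first 2 and Ccl5 in the last, and Cd3e was at 0 in all 5 libraries. The part of T or NK cells, and that of fragments shared with Ms4a4c, in the level of Ms4a4b was not tested.

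Tmem176a and Tmem176b are 4-span proteins of monocytes and dendritic cells. Naïve monocytes held 75.7 FPKM of Tmem176b, Ym1- monocytes 57.9 and Ym1+ monocytes 32.6, and it was at 0.909 and 1.04 in naïve neutrophils and neutrophils after LPS. It was called lower in Ym1+ than in naïve monocytes, at -1.19, while the difference was -0.38 in Ym1- monocytes. Tmem176a was at 24.6, 25.6 and 18.8 in naïve, Ym1- and Ym1+ monocytes, with no call among them. Across the monocyte libraries Tmem176b moved in the same direction as the sum of dendritic cell markers given above. Cd74 made up most of that sum, at 117, 45.9 and 13.4 FPKM in naïve, Ym1- and Ym1+ monocytes. In neutrophils the sum was 9.70 without LPS and 2.26 after LPS, opposite in direction to Tmem176b. The part of dendritic cells in the Tmem176b difference was not tested.

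The lymphoid and mast cell members were near or at 0. Ms4a1 (CD20) was listed at 0 in 4 libraries and at 0.0637 in neutrophils after LPS, and Ms4a2 did not go above 0.377. Ms4a15 did not go above 0.0782, and Ms4a4d, Ms4a5, Ms4a10, Ms4a13 and Ms4a18 were at 0 in all 5 libraries.

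The genes of most similar pattern were sought by the Euclidean distance between centred log2(FPKM + 1) profiles over the 5 libraries, among genes that reached 10 FPKM. With 5 libraries and a large lineage difference many genes lie close, so these are descriptions. Nearest to Ms4a6c was S100a10, the partner of annexin A2, at a distance of 0.38. Ccr2, the chemokine receptor for exit of monocytes from BM, followed at 0.43, with 499 FPKM without LPS, and 434 (Ym1-) and 439 (Ym1+) after LPS, and then Pld4, a lysosomal nuclease, at 0.49. Nearest to Ms4a4c were Txndc5, a protein of disulfide bond formation (0.36), Ass1, argininosuccinate synthase (0.52), and Ly86, or MD-1 (0.65). Nearest to Ms4a6b were Plxnb2, a semaphorin receptor (0.44), Rassf4 (0.49) and Txndc5 (0.55).

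Ms4a6d had no such close match. Its nearest gene was Ifi30, the thiol reductase GILT of antigen processing, at 1.02. Ifi30 was at 659 FPKM without LPS, and at 1240 (Ym1-) and 1172 (Ym1+) after LPS. Trem2, a lipid-sensing receptor of macrophages, and Gm5424 both followed at 1.40, and Trem2 was at 27.5 without LPS, and at 40.6 (Ym1-) and 39.5 (Ym1+) after it. Nearest to Ms4a7 were Cenpl (0.34) and Spc25 (0.40), of the kinetochore, and Lars2 (0.35), the mitochondrial leucyl-tRNA synthetase. These are at a far higher level than Ms4a7, with 18.5 FPKM for Cenpl in Ym1+ monocytes, so the likeness is one of small differences on this scale.

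Among the 5 genes themselves, Ms4a4c was nearest to Ms4a6b (0.82) and Ms4a6c (0.86). Ms4a6b lay at 1.67 from Ms4a6c, with which it shares the upstream run printed above. Their FPKM ratios of naïve monocytes to naïve neutrophils, 201 (95.1 to 520) and 282 (193 to 432), had overlapping intervals. Ms4a6d lay at 1.97 from Ms4a4c and at 2.66 from Ms4a6c. Ms4a7 was 5.47 to 7.31 from each of the others.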

How the data were processed

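For each of 5 libraries the authors deposited FPKM by gene symbol. The kit on record is a strand-specific SureSelect kit. Cufflinks 2.1.1, TopHat2 2.0.8 and mm9 appear in the submitters' processing notes. Annotation and options were not stated in the sources at hand. Since FPKM is a normalized unit, count models were not applied.

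In 7 comparisons, log2(FPKM + 1) of 1 library was subtracted from that of another with Python 3.11.15, numpy 2.4.6, pandas 2.3.3 and scipy 1.17.1. The depth of a library relative to another was the commonest ratio of their low values. Rough fragment numbers use GENCODE transcript lengths (GRCm38) and take the commonest low value as 1 fragment. Transcripts were compared in 50-base stretches and promoters with Biopython 1.88. Fold calls and the ratio interval were tested on simulated data, and the search for nearest genes on a planted profile. The simulated fold calls used genes at levels above those of Ms4a7. Depth, fragment numbers and sequence comparisons were not tested in this way.

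The genes named are the 5 members, other family genes reaching 1 FPKM, the 3 nearest genes to each member, and markers by list counts and highest marker. Markers used to compare the sort or neutrophil levels were named in addition, after their values were seen. The same holds for Cd3e, Nkg7, Ccl5, the C1q genes, Cd163, Mrc1, Timd4 and the myeloid progenitor markers. Members and lists were chosen with earlier results of these data known. Alternatives were a pseudocount of 0.1, no filter or a minimum of 5 FPKM, TPM and median-of-ratios scaling, and a 4-fold threshold. A planned comparison of the proteins was not made, as their sequences were not used here.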

Additional observations from a re-analysis of the deposited data

Results flagged for a closer look

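Tmem176b, the 4-span gene related to the Ms4a family, had differences of opposite sign after LPS in the 2 lineages, which is why it is given here. In Ym1- monocytes it was at -0.38 on the log2(FPKM + 1) scale against naïve monocytes, and in neutrophils it was at 0.094 against naïve neutrophils. Both values are under the 2-fold threshold, and the neutrophil levels are 1.04 and 0.909 FPKM, from about 9.67 and 10.2 fragments. The FPKM ratio in neutrophils was 1.14 (95% counting interval 0.423 to 3.06), so its direction cannot be read. With 1 library per condition the difference between lineages was not tested.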

How the results depend on the processing

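No paired analysis was possible because there was 1 library per condition. For the same reason no library could be left out. Of the 7 counts of members called, those of the 3 lineage comparisons stayed at 4 or 5 under every alternative run, with Ms4a4c, Ms4a6b, Ms4a6c and Ms4a6d called each time. Ms4a7 was called in naïve monocytes only with a pseudocount of 0.1, and its call in Ym1+ monocytes against neutrophils was not made at a minimum of 5 FPKM or at 4-fold. Against naïve monocytes, the count for Ym1- monocytes went from 1 to 0 at a 4-fold threshold, as Ms4a6d was at 1.90, and that for Ym1+ monocytes went from 1 to 2 with a pseudocount of 0.1 and to 2 after rescaling to TPM, where Ms4a7 joined Ms4a6d. Between Ym1+ and Ym1- monocytes the count went from 1 to 0 at a minimum of 5 FPKM and to 0 at 4-fold, both through Ms4a7. In neutrophils no member was left at a minimum of 5 FPKM, so this alternative gives no value.

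Of the calls over all genes, 79.8% were in the higher direction for naïve monocytes against naïve neutrophils, and 52.0% with median-of-ratios scaling. The shares were 78.8% and 49.1% for Ym1- monocytes and 79.2% and 48.3% for Ym1+ monocytes against neutrophils after LPS. For neutrophils after LPS against naïve neutrophils the share was 62.6%, and 51.1% after rescaling to TPM. Depth limits the values of Ms4a7, and those of the 5 members in neutrophils, which rest on at most about 26.2 fragments.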
